A study of Mus musculus with 2 samples.

Results

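The 8 genes described here encode the coat of caveolae: the caveolins Cav1, Cav2 and Cav3, the cavins Cavin1, Cavin2, Cavin3 and Cavin4, and the ATPase Ehd2. They were chosen by name, and all 8 were found among the 15048 annotated genes with at least 1 read. Their transcripts were read in heart tissue of female B6CASTF1/J mice, the F1 hybrid of C57BL/6J and CAST/EiJ, at 14 days of age and with no treatment named. Total RNA from the tissue gave 2 long-read libraries, replicates 1 and 2 of 1 group, so the ratios below compare libraries and not conditions. The labels call them biological replicates without naming clearly which animals each came from, and 1 description of both refers to females in the plural. The spread between the libraries may therefore be technical, and the p-values set it against counting error alone.

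Caveolae are flask-shaped pits of the plasma membrane that are dense in endothelial cells, adipocytes and muscle cells. Caveolins insert into the inner leaflet as oligomers, cavins assemble as a coat on the cytosolic side, and Ehd2 forms rings at the neck that hold the pit at the surface. Cav1 and Cav2 are made in endothelium and many other cells, whereas Cav3 and Cavin4 are the forms of muscle. In the tissue as a whole, fewer cells of a type and less RNA per cell cannot be told apart.

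The libraries held 896941 and 972159 reads in replicates 1 and 2. Levels are read counts scaled to the library's total (CPM), over every class of transcript model except the genomic one, which holds reads that match no splicing pattern of their gene. A single read was worth 1.17 CPM in replicate 1 and 1.08 CPM in replicate 2, and 0 reads leave room for a level of up to 3.50 and 3.24 CPM (3 reads). Each long read was counted once for its transcript, whatever the length, so levels are compared between genes with no division by length. Whether long transcripts were read as readily as short ones was not tested. The transcripts numbered 201 of the 8 genes run from 1157 bases (Cav3) to 5119 bases (Ehd2), so the order of levels carries this limit. Cell type markers showed what the tissue held. A gene counted as detected when both libraries had 3 reads or more. All 10 cardiomyocyte markers were, and together they reached 50834 ± 814 CPM (SD, n = 2), with Myh6, Myl3 and Actc1 highest. All 11 endothelial markers were detected at 1180 ± 48.2 CPM, led by Eng, Esam and Egfl7. Fibroblast markers (8 of 8, led by Col3a1, Col1a1 and Dcn) summed to 6818 ± 101 CPM, smooth muscle and pericyte markers (10 of 10, led by Rgs5, Acta2 and Kcnj8) to 1040 ± 110 CPM, macrophage and leukocyte markers (9 of 10, led by Lyz2, Cd74 and C1qa) to 341 ± 51.8 CPM and adipocyte markers (6 of 7, led by Ucp1, Cfd and Cidec) to 220 ± 32.4 CPM. None of the 10 skeletal muscle markers was detected by that rule, and 8 of them had 0 reads in both libraries. Of the 10 cardiomyocyte markers tested, Actc1, Myl2 and Myl3, and of the 5 adipocyte markers tested, Ucp1, were lower in replicate 1 than in replicate 2 by the exact binomial test over all genes, which called 162 of 9433 (1.72%), 74 of them in this direction.

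Together the 8 genes reached 1691 CPM in replicate 1 and 1671 CPM in replicate 2. The caveolins summed to 697 ± 55.3 CPM and the cavins to 870 ± 40.0 CPM (SD, n = 2 each). With the genomic class counted, there were 1.27 ± 0.0944 cavin reads for each caveolin read. Cavin2 and Cav1 led, and the muscle forms, Cav3 and Cavin4, stood at between 106 and 133 CPM. The plot of levels by gene shows the order.

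**Figure D1:**
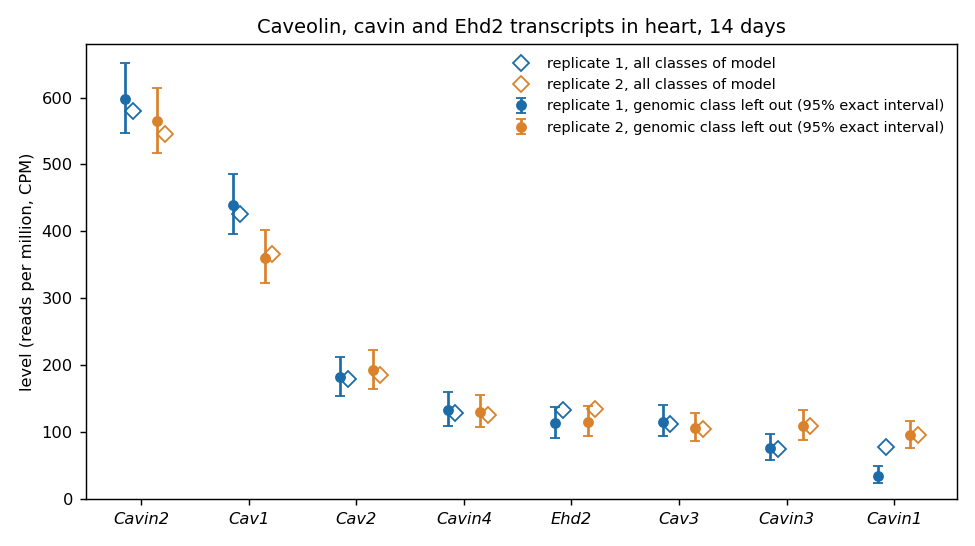
Level of each gene in CPM, replicate 1 left and replicate 2 right, genes ordered by mean level. Filled circles leave out the genomic class and carry exact 95% intervals for counting error, and open diamonds count every class. Reads placed on the strand opposite a gene are counted in neither. Cavin2 sits between 564 and 598 CPM and the filled circles of Cavin1 lie at 35.0 and 94.98 CPM, while its diamonds stand at 78.0 and 94.9 CPM.

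Among the caveolins, Cav1 encodes caveolin-1, the scaffold protein needed for caveolae outside striated muscle (ENSMUSG00000007655.16; mm10 chromosome 6, 17306335 to 17341452, plus strand). It had 377 and 334 reads in replicates 1 and 2, or 439 and 360 CPM (400 ± 55.8 CPM, SD, n = 2), and ranked 334 among all genes. Cav2, whose product joins caveolin-1 in mixed oligomers, lies upstream on the same strand with 17219 bases between the genes (ENSMUSG00000000058.6; chromosome 6, 17281185 to 17289115). It had 156 and 178 reads, or 182 and 192 CPM (187 ± 7.29 CPM). With every class counted, there were 2.39 Cav1 reads for each Cav2 read in replicate 1 and 1.97 in replicate 2. Cav3, the muscle caveolin, lies on the same chromosome (ENSMUSG00000062694.7; 112459505 to 112472872, plus strand). It had 99 and 98 reads, or 115 and 106 CPM (111 ± 6.79 CPM), and there were 3.66 ± 0.211 Cav1 reads for each Cav3 read. In both libraries, then, the order was Cav1, Cav2, Cav3, with no overlap between neighbours.

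Among the cavins, Cavin2, which shapes the caveolar membrane and is prominent in endothelium, was the highest of the 8 genes (ENSMUSG00000045954.7; chromosome 1, 51289126 to 51302960, plus strand). It had 513 and 523 reads, or 598 and 564 CPM (581 ± 23.6 CPM, SD, n = 2), and ranked 220. Cavin4, the muscle cavin (ENSMUSG00000028348.7; chromosome 4, 48663514 to 48673502, plus strand), had 114 and 120 reads, or 133 and 130 CPM (131 ± 2.37 CPM). Cavin3, which binds protein kinase C delta (ENSMUSG00000037060.3; chromosome 7, 105480083 to 105482300, minus strand), had 65 and 101 reads, or 75.8 and 109 CPM (92.4 ± 23.5 CPM). Its exact 95% intervals, 58.5 to 96.6 CPM in replicate 1 and 88.8 to 132 CPM in replicate 2, overlapped. Overlap is not a test of difference, and the test is given below.

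Cavin1, the core cavin without which caveolae do not form (ENSMUSG00000004044.9; chromosome 11, 100956733 to 100970887, minus strand), had 30 and 88 reads, or 35.0 and 94.98 CPM, outside the genomic class. With the genomic class counted, it had 69 and 91 reads, or 78.0 and 94.9 CPM (86.4 ± 11.9 CPM). Either way it was lowest by mean, and every class counted gave 6.59 ± 1.19 Cavin2 reads for each Cavin1 read. Not counted here were 90 and 104 single-exon reads placed on the other strand over part of its last exon. Their models also run outside the gene, from 100955212 in replicate 1 and from 100955413 in replicate 2. Single-exon reads of both strands cannot be told apart, as described at the end. The level and place of Cavin1 and this ratio therefore depend on the strand given to such reads. Ehd2, the ATPase of the caveolar neck (ENSMUSG00000074364.6; chromosome 7, 15946958 to 15967567, minus strand), had 97 and 106 reads, or 113 and 114 CPM (114 ± 0.960 CPM). With the genomic class it had 118 and 129 reads, or 133 and 134 CPM. By mean level outside the genomic class the order ran Cavin2, Cav1, Cav2, Cavin4, Ehd2, Cav3, Cavin3, Cavin1. The first 4 steps of that order were held apart in both libraries, whereas Ehd2 and Cav3, Cav3 and Cavin3, and Cavin3 and Cavin1 overlapped. With every class counted, Ehd2 moved ahead of Cavin4 and both were apart from Cav3, while Cav3 and Cavin3, and Cavin3 and Cavin1, still overlapped. The genomic reads of Ehd2, 21 and 23, were single-exon reads within its last exon. The other strand held 16 and 22 single-exon reads over part of that exon, so this place of Ehd2 also depends on the strand given to such reads.

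Each gene's reads in the libraries were set against the library totals by an exact binomial test, two-sided, with Benjamini-Hochberg adjustment over all 9433 genes that had at least 10 reads. At an adjusted p under 0.05, 162 genes (1.72% of those tested) differed, 88 of them higher and 74 lower in replicate 1. Of the 8 genes, 1 differed, Cavin1, which was lower in replicate 1 by a log2 ratio of -1.44 (exact 95% interval -2.09 to -0.83, exact binomial adjusted p = 0.0001286). This call rested on how reads were classed. With every class counted, the log2 ratio of Cavin1 was -0.28 (interval -0.76 to 0.18, exact binomial adjusted p = 0.828), beside 167 genes called of 9907 (1.69%). The median log2 ratio was 0.01 over the 8 genes and -0.0047 over all genes tested.

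The other 7 genes did not pass the test. Cav1 had a log2 ratio of 0.29 (interval 0.07 to 0.50, exact binomial adjusted p = 0.228) and Cavin3 one of -0.53 (interval -0.998 to -0.061, adjusted p = 0.381 by the same exact test). Neither of these intervals, which are not adjusted, included 0. By the same test, 1 of the 3 caveolins (Cav1) and 2 of the 4 cavins (Cavin1 and Cavin3) had an unadjusted p under 0.05. So had 888 of all 9433 genes tested (9.41%). The intervals of Cav2, Cav3, Cavin2, Cavin4 and Ehd2 all included 0, and the widest, that of Cav3, ran from -0.29 to 0.54.

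**Figure D2:**
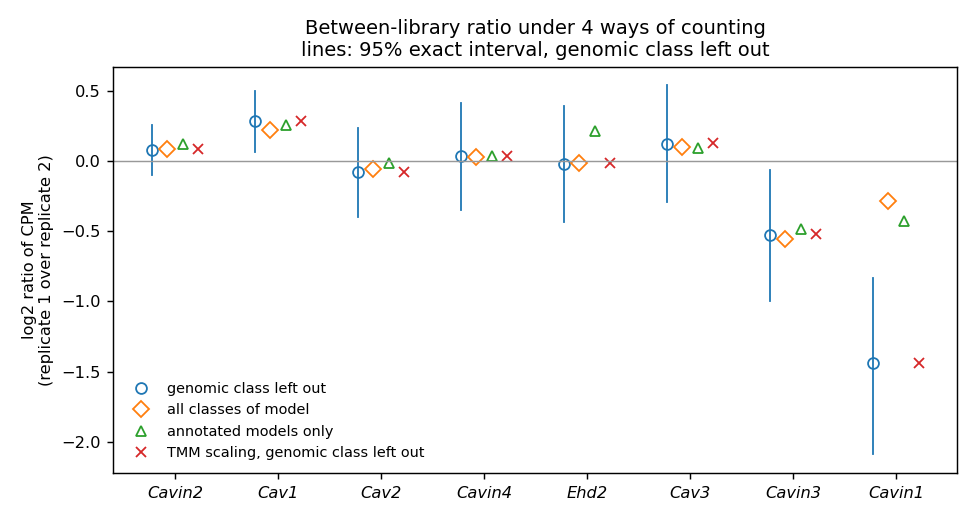
The log2 ratio of CPM, replicate 1 over replicate 2, for each gene under 4 ways of counting: genomic class left out (circles, with exact 95% intervals), every class (diamonds), annotated models only (triangles) and TMM scaling (crosses). Cavin1 stands at -1.44 with the genomic class left out and at -0.28 with every class counted, and Cavin3 stays near -0.5 in all 4.

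For Cavin1, reads on models lying wholly within the last annotated exon (chromosome 11, 100956733 to 100959325, 2593 bases, holding the end of the coding sequence and the 3′ UTR) decided this. There were 35 such reads in replicate 1 and 44 in replicate 2. In replicate 1 all 35 were on a genomic model of 100956733 to 100958475, and in replicate 2 all 44 were on an incomplete model of 100956733 to 100959325. They made up 50.7% of the reads assigned to Cavin1 in replicate 1 and 48.4% in replicate 2 (exact 95% intervals 38.4 to 63.0% and 37.7 to 59.1%), counting error only. The other strand held 90 and 104 single-exon reads over part of this exon, on models that also run outside the gene. The strand of single-exon reads is not certain. The same class switch ran the other way in Cav1, where 14 last-exon reads were incomplete in replicate 1 and 17 were genomic in replicate 2. Over the 8 genes, 149 of 1514 reads on their strand (9.84%) lay within the last exon in replicate 1, and 168 of 1599 (10.5%) in replicate 2.

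Last-exon reads were most frequent in Cavin1, then in Ehd2 at 17.8% in each library and in Cavin2 at 13.6 and 14.9%. In the transcripts numbered 201, the last exons of these 3 genes have 2593, 3835 and 2312 bases. Those of Cav2 and Cav1 have 2219 and 2212 bases, and that of Cav1-202 has 2340. Cav2 and Cav1 had 1.76 ± 0.694% and 4.28 ± 0.799% of their reads within the last exon (SD, n = 2). In Cavin2 all such reads were classed as incomplete, 70 and 78 of them, and in Ehd2 all were genomic, 21 and 23. The level of Ehd2 outside the genomic class is thus lower by these reads, and that of Cavin2 is not.

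Annotated models carried 86.9% of the reads of the 8 genes in replicate 1 and 84.7% in replicate 2. Cavin4, with 99.1 and 98.4% (113 and 120 reads), Cavin3, with 98.5 and 94.3%, Cav2, with 97.5 and 94.9%, and Cav3, with 93.9 and 95%, were read almost wholly as 1 annotated form each. Cav1 had 90.7 and 88.9% on annotated models and Cavin2 85.6 and 84.1%. Ehd2, with 67.8 and 58.1%, and Cavin1, with 43.5 and 48.4%, had the smallest shares. The median over the 5382 genes tested was 84.0 and 84.2%. Of these genes, 4 (0.0743%) differed between the libraries in this share by Fisher's exact test adjusted over all of them, and 230 had an unadjusted p under 0.05. None of the 8 genes was called. With genomic reads left out, the share of Cavin1 was 100% in replicate 1 and 50% in replicate 2, a difference that was called (Fisher's exact test, adjusted p = 3.701e-05) and that has the opposite sign to the -4.87 percentage points with every class counted.

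**Figure D3:**
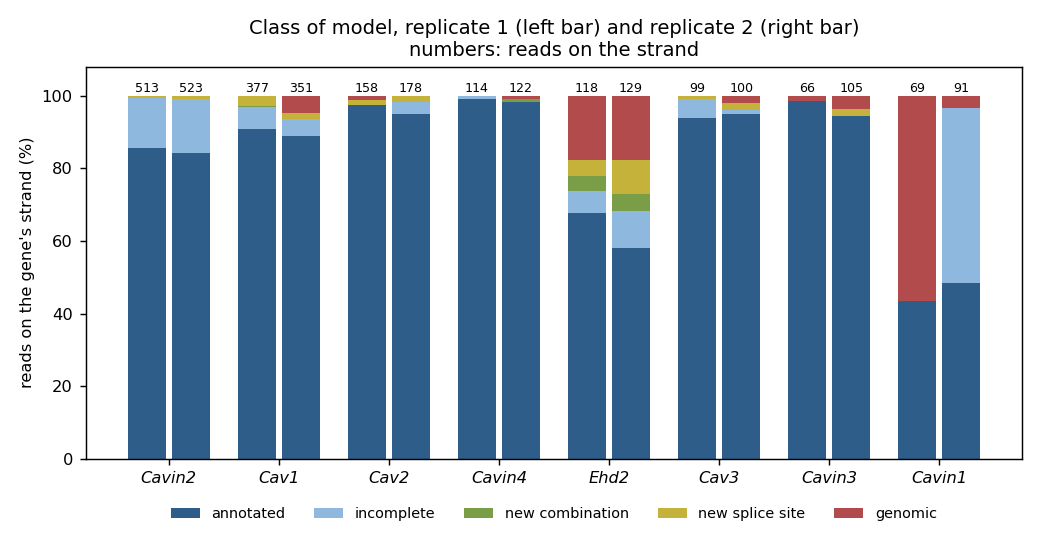
Share of the reads on each gene's strand by class of model, in percent, with replicate 1 as the left bar and replicate 2 as the right bar, and the number of reads above each bar. The reads of Cavin1 outside annotated models are genomic in replicate 1 (56.5%) and mostly incomplete in replicate 2 (48.4%), and Ehd2 has every class in both libraries.

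Cav1 reads fell on forms that have different starts in the annotation. Caveolin-1 exists as a longer alpha form and a shorter beta form that begins at a second methionine. In the annotation, Cav1-201 opens with a first exon (chromosome 6, 17306335 to 17306479) that is spliced to the second exon at 17307881, and has 178 codons. Cav1-202 starts 1305 bases further on, at 17307640, runs unspliced into the same second exon and has 147 codons, its start codon being codon 32 of Cav1-201. The coding start of Cav1-201 (chr6:17306450-17306479 joined to chr6:17307881-17307970, mm10, plus strand) is shown because both start codons, in capitals, lie in it 93 bases apart. The lines after it show the stretches that tell the forms apart, with the second exon of Cav1-201 in capitals. That of Cav1-201 joins chr6:17306465-17306479 to chr6:17307881-17307895. That of Cav1-202, at chr6:17307866-17307895, lies within its first exon and crosses no splice.
Cav1-201 coding start: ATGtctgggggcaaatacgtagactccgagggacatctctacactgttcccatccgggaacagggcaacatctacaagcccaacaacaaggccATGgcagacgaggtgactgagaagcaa
Cav1-201 join: tacgtagactccgagGGACATCTCTACACT
Cav1-202 join: cggttgccctcacagGGACATCTCTACACT

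Of Cav1 reads that held the second exon, 244 of 361 in replicate 1 and 204 of 333 in replicate 2 began in the first exon of Cav1-201. These were 67.6% and 61.3% (exact 95% intervals 62.5 to 72.4% and 55.8 to 66.5%). A further 104 and 120 reads, or 28.8 and 36.0% (intervals 24.2 to 33.8% and 30.9 to 41.4%), were on models that run unspliced into the second exon as Cav1-202 does. Another 13 and 9 reads, or 3.60 and 2.70%, began in a separate exon inside the first intron. The longer coding sequence thus came with most of these reads in both libraries. The intervals of the libraries overlapped, which is not a test of their difference, and none was run on these groups. The groups of starts were chosen once the reads had been looked at. A read that lost its 5′ end cannot be told from a start further in. The join after the first exon sets apart the reads that began there, whereas models that run unspliced have no join at that point. The only intron of Cav1-202 is also the last intron of Cav1-201. A spliced read of Cav1-201 cut within its second exon would thus look like one of Cav1-202, and this was not tested. Starts were taken from the models, so how far each read reached was not seen.

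By form, Cav1-201 took 229 and 190 reads, 67.0 and 60.9% of the 342 and 312 reads on annotated forms. That difference of 6.06 percentage points was not called by Fisher's exact test adjusted over all genes (adjusted p = 1), beside 2 genes called of 2747 (0.0728%), with 96 at an unadjusted p under 0.05. Cav1-202 took 96 and 104 reads. Cav1-206, whose first exon lies at 17307048 to 17307164 and which uses the start codon of Cav1-202, took 2 and 5 reads, and Cav1-203, with a first exon at 17307278 to 17307318, took 3 and 2. An unannotated form like Cav1-206 but with its first exon ending at 17307170 had 5 reads in replicate 1 and 0 in replicate 2.

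Both starts have an upstream window in the RefSeq promoter table of build GRCm38.p6. The 250 bases before each start are shown because reads were assigned to forms of both. Capitals mark the letters of a TATA box (TATAAA), those of a GC box (GGGCGG) and those of a CCAAT box, each searched on both strands, and no matches overlap here. The window before Cav1-201 (chr6:17306085-17306334, mm10, plus strand) held 1 TATAAA and 1 GGGCGG, both read on the minus strand, and that before Cav1-202 (chr6:17307390-17307639), which lies in the first intron of Cav1-201, held neither. CCAAT was in neither and CANNTG was once in each. Over 32851 promoters of the table, 12.4% held TATAAA, 32.7% GGGCGG, 33.8% CCAAT and 66.2% CANNTG in the same window. The windows had 59.6% and 60.8% of G and C and 10 and 12 CG pairs, against medians of 52.4% and 6 over the table. A match to these letters is a description only.
Before Cav1-201: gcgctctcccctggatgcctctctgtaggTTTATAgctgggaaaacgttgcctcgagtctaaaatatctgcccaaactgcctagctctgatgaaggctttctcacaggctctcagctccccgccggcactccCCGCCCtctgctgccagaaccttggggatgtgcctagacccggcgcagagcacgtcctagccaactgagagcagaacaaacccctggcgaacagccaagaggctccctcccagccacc
Before Cav1-202: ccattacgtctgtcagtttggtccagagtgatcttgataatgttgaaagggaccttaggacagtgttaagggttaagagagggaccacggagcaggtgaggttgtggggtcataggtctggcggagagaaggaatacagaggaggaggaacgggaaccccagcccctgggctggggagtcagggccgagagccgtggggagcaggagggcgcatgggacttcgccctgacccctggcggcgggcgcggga

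Cav1 also varied at its 3′ end. In Cav1-205 an intron of 622 bases (17339476 to 17340097) is removed from the 3′ UTR, 21 bases after the stop codon. The end of its coding sequence and the join (chr6:17339437-17339475 and chr6:17340098-17340103) follow, with the stop codon in capitals, to show how near the splice lies.
Cav1-205 end: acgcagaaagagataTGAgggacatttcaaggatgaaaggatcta

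Of reads on models that cover this stretch, 21 of 370 in replicate 1 and 25 of 343 in replicate 2 had the intron removed. These were 5.68 and 7.29% (exact 95% intervals 3.55 to 8.55% and 4.77 to 10.6%). In forms that began in the first exon of Cav1-201, 13 of 243 and 10 of 203 reads had it removed, or 5.35 and 4.93%. On models that run unspliced into the second exon, 6 of 103 and 15 of 120 had, or 5.83 and 12.5% (intervals 2.17 to 12.2% and 7.17 to 19.8%). The spliced 3′ UTR was thus found on models of both of these groups. Cav1-205 itself had 12 and 10 reads, and the form with this intron on models that run unspliced, classed as incomplete, had 6 and 15. The introns of that form are the last introns of Cav1-205. A Cav1-205 read that lost its 5′ end would have the same introns, so these reads do not show which start goes with the spliced 3′ UTR.

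**Figure D4:**
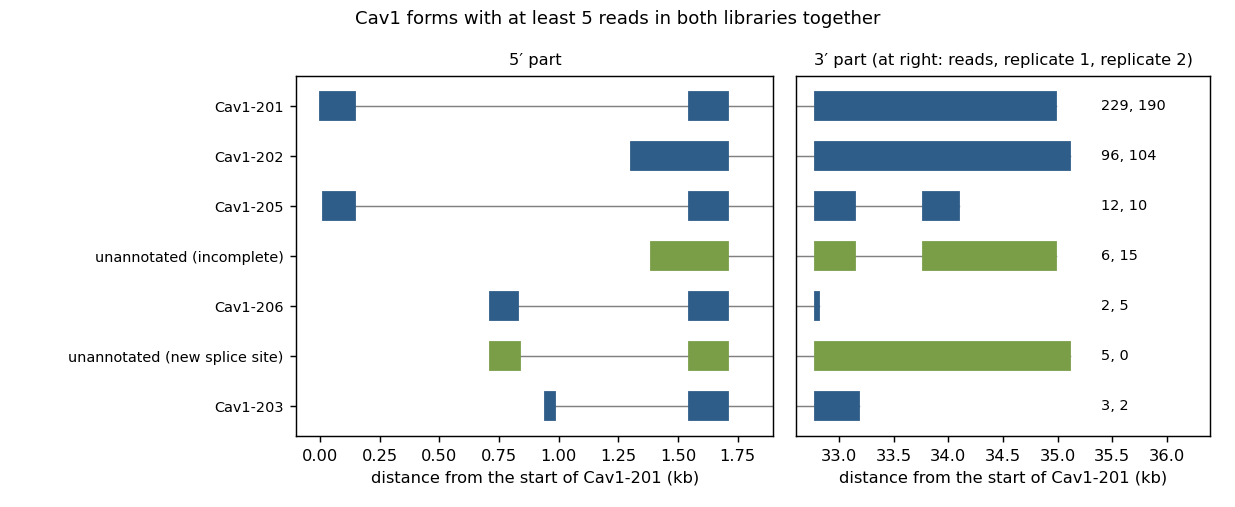
Cav1 forms with at least 5 reads in both libraries together, drawn as exons (boxes) and introns (lines) against the distance in kb from the start of Cav1-201, for the 5′ part (left panel) and the 3′ part (right panel), with annotated forms in blue and unannotated ones in green. The numbers are reads in replicate 1 and in replicate 2; Cav1-201 has 229 and 190, and Cav1-202, which starts 1305 bases further on, has 96 and 104.

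Cavin1 was read in both annotated forms. Cavin1-201 joins its first exon to the long last exon and codes for 392 residues, whereas Cavin1-202, annotated as a processed transcript with no coding sequence, ends in another exon of 96 bases (chromosome 11, 100964407 to 100964502). The lines show where the forms part, on the minus strand, with the second exon in capitals. Both begin at chr11:100969990-100970019, after which Cavin1-201 goes on at chr11:100959296-100959325 and Cavin1-202 at chr11:100964473-100964502.
Cavin1-201 join: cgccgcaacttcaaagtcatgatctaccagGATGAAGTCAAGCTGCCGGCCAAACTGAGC
Cavin1-202 join: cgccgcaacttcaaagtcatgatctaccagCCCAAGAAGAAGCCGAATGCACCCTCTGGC

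Cavin1-201 took 21 of 30 spliced reads in replicate 1 and 31 of 44 in replicate 2, or 70.0 and 70.5% (exact 95% intervals 50.6 to 85.3% and 54.8 to 83.2%). Cavin1-202 took the other 9 and 13 reads. The leading share differed by -0.45 percentage points (Fisher's exact test, adjusted p = 1) and the counting intervals were wide. Reads on Cavin1-201, the form that joins both coding exons, were 30.4% and 34.1% of all Cavin1 reads.

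Ehd2 had the most varied structures for its depth, with 16 spliced ones over both libraries, 15 of them unannotated and 7 seen in both, against 20 for the more deeply read Cav1. Of the unannotated ones, only 3 had at least 5 reads over both libraries, and some were incomplete. Ehd2-201 also has more exons than the transcripts numbered 201 of the other genes, which have 2 or 3. Ehd2-201, of 6 exons and 543 codons, took 80 and 75 reads, or 67.8 and 58.1% of all reads on the strand. The second exon of 460 bases (chromosome 7, 15963907 to 15964366) holds its start codon. Among reads that reached the first exon, 2 of 88 in replicate 1 and 5 of 92 in replicate 2 skipped the second exon, and 3 and 1 skipped both the second and the third. The second exon was therefore in 94.3 and 93.5% of them (exact 95% intervals 87.2 to 98.1% and 86.3 to 97.6%). The joins of the included and the skipped forms are shown on the minus strand with the downstream exon in capitals. Each begins at chr7:15967420-15967434, and goes on at chr7:15964352-15964366 in Ehd2-201 and at chr7:15963463-15963477 in the skipped form. The second line holds the ATG at 15963471 to 15963473 that the annotation gives as the start codon of Ehd2-202. That transcript is annotated with this same join, and no read was assigned to it.
Ehd2-201 join: ctccccagatccctgGTGAGCTCTCCACCT
Ehd2 skipped join: ctccccagatccctgGTTTATGTGCGCCCA

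Other Ehd2 forms with at least 5 reads were an incomplete one that began in the second exon, with 4 and 10 reads, and one whose second exon began at 15964397 in place of 15964366, with 2 and 3. No other spliced form exceeded 10 reads in a library.

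The remaining genes were simple. Cav2-201 took 154 of 154 reads on annotated forms in replicate 1 and 168 of 169 in replicate 2. Cav3-201 took 93 and 95 reads, Cavin3-201 65 and 99, and Cavin4-201 113 and 120. Cavin2-201 took 439 and 440 reads, and an unannotated form with the first exon ending at 51289872 in place of 51289868, 4 bases further on, took 2 and 4.

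Proteins that shape the membrane beside the caveolar coat were listed with the same rule of detection. Of 15 genes, 11 were detected and tested and 1 was called, beside 1.72% of all genes tested. Ehd4, a relative of Ehd2 that works on endosomes, was highest at 887 and 940 CPM. Flot2, a flotillin scaffold of other membrane patches, stood at 254 and 270 CPM, and Pacsin2, an F-BAR protein that bends caveolar membrane, at 251 and 260 CPM. Ehd1, a relative of Ehd2 in endocytic recycling, had 262 and 188 reads and was higher in replicate 1 (log2 ratio 0.59, interval 0.31 to 0.87, exact binomial adjusted p = 0.00213). Ehd2 itself was thus below Ehd1 and Ehd4 in both libraries.

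Of 25 genes for proteins described in caveolae, 21 were detected and 22 were tested. None was called by the exact binomial test, and 2 had an unadjusted p under 0.05, as had 888 of all 9433 genes tested (9.41%). Gnas, which encodes the stimulatory G protein alpha subunit, stood at 1318 and 1333 CPM, Cd36, the fatty acid carrier, at 552 and 472 CPM, and Gnai2, an inhibitory G protein alpha subunit, at 209 and 253 CPM. The median log2 ratio was 0.21 over those tested that had reads in both libraries, which left out a gene with 0 and 10 reads. It was -0.0047 over all genes tested, with none left out.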

How the data were processed

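Total RNA of mouse heart was read by long-read sequencing in 2 libraries. Per the deposited tables, the authors gave the count of reads per transcript model, whole numbers and not normalized, on mm10 with GENCODE M21, each library processed alone. Models were built by TALON, per the file headers, and the aligner, the filters and any use of strand in counting were not given in the sources used here. Reads were summed per gene and divided by 858071 and 926560, the totals in replicates 1 and 2 outside the genomic class and without spike-ins, to give CPM. Unannotated models were matched between libraries by intron chain. The genes and lists were chosen with earlier results of these data known.

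Tests ran over all genes: a two-sided exact binomial test of reads (at least 10 in both libraries together), and two-sided Fisher's exact tests of the share of the leading form and of annotated models (at least 20 reads in each library), with Benjamini-Hochberg adjustment and a threshold of 0.05 (Python 3.11.15, scipy 1.17.1; TMM factors from edgeR 4.0.16). They were tested on simulated data. Intervals are exact Clopper-Pearson intervals at 95% and cover counting error only, as does the limit of a count of 0. The text names all 8 genes, their forms with at least 5 reads, and of each other list the 3 highest genes and those called. Exceptions were chosen after their values were seen: the grouping of Cav1 starts, the Cav1 3′ UTR intron, reads within the last exon, skipped Ehd2 exons and reads on the other strand. Alternatives were the classes counted, scaling, minimum counts and leaving out a library. Promoter entries matched 7 of the 8 genes.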

Additional observations from a re-analysis of the deposited data

Results flagged for a closer look

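Reads also lay on the strand opposite 3 of the genes, above the limit that a count of 0 allows (3 reads), in models that no comparison used. Opposite Cavin1 there were 95 reads in replicate 1 and 112 in replicate 2, set beside 69 and 91 on its own strand. Of these, 90 and 104 were on a single-exon model that ended at 100958475 of chromosome 11 in both libraries, the coordinate where the genomic model of Cavin1 in replicate 1 also ended. At its other end the model ran outside Cavin1, which is annotated from 100956733, to 100955212 in replicate 1 and 100955413 in replicate 2. Opposite Ehd2 there were 38 and 31 reads, on single-exon models over the last exon and over the middle of the gene. Opposite Cavin2 there were 15 and 14, assigned to the annotated gene 9330175M20Rik. Since no source used here says whether the counting used strand, single-exon reads of a gene and of its opposite strand cannot be told apart. Spliced reads on annotated forms take their strand from the introns they share with the annotation.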

How the results depend on the processing

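No paired analysis was possible because there was 1 group, and leaving out a library left no ratio or test between libraries. The number of genes called for reads per gene held within 1.5 times under each alternative. For Cavin1 the log2 ratio lost its call with every class counted (-0.28), with models of any class overlapping the gene on its strand, an alternative added after seeing the data (-0.28), and with annotated models only (-0.43, exact binomial adjusted p = 0.857). The other 7 genes stayed uncalled under every alternative run, with the sign of their ratio unchanged except for Ehd2, which stood at 0.22 with annotated models only and at -0.017 outside the genomic class. The summed level of the 8 genes was 1681 CPM, 1671 to 1691 CPM when each library was left out in turn, and 1912 CPM with annotated models only, where the total is smaller. The number of genes called for the leading form share was 2, and became 1 with annotated models only, 32 with incomplete models counted as other reads and 1 with a minimum of 10 reads. With incomplete models counted as other reads, the Cavin1 difference in that share turned to 34.8 percentage points (Fisher's exact test, adjusted p = 0.141). The number called for the share on annotated models was 4, and became 32 with genomic reads left out. There the Cavin1 difference in that share reversed to 50 percentage points (100% in replicate 1 and 50% in replicate 2, Fisher's exact test, adjusted p = 3.701e-05), against -4.87 with all classes counted, and that of Cav1, uncalled, turned to -2.70. The Cavin1 turns follow from the class given to its last-exon reads. Low counts limit the shares of Cavin1, with 69 and 91 reads of which 30 and 44 were on annotated forms, and of Ehd2, with 118 and 129.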
